A study of Homo sapiens with 14 samples.

Results

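The integrated stress response and amino acid genes controlled by the transcription factor ATF4 were examined in glucose-deprived and glucose-fed head and neck squamous cell carcinoma (HNSCC) cells. The group holds 37 genes, picked by name from the 59471 gene names of the count files. The rule goes by name, and the genes were chosen with earlier results of these data known. The cells were SCC23, an established HNSCC line, and the RNA-seq data comprised 14 libraries from 2 experiments. KMT2D-WT cells had received Cas9 with an sgRNA against LacZ, while KO1 and KO2, a pair of KMT2D-KO lines, had been given Cas9 and an sgRNA targeting KMT2D, the histone H3K4 methyltransferase gene. The plasmid, pSpCas9(BB)-2A-GFP, was given for 24 h, and the lines were grown from sorted GFP-positive cells with no cloning of single cells described, so each line can hold several edits. Cells were kept in glucose (+Glc) or deprived of it for 6 h (-Glc). KMT2D-WT cells had 3 libraries in each condition, 1 from experiment 1 and 2 from experiment 2. KMT2D-KO cells had 4 in each condition, 1 of KO1 and 1 of KO2 from each experiment.

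Kinases that sense amino acid shortage, unfolded proteins in the endoplasmic reticulum, viral RNA or heme loss phosphorylate the initiation factor eIF2. General protein synthesis then falls while translation of ATF4 mRNA rises. ATF4 pairs with other basic leucine zipper proteins and turns on genes for amino acid synthesis and import, tRNA charging, redox balance and, under prolonged stress, cell death. Because ATF4 is controlled largely at translation, its mRNA need not follow its protein, and protein was not measured here.

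ATF4 and its C/EBP partners bind composite elements whose core is written TGATGNAA on either strand, also known as the amino acid response element or CARE. RefSeq promoter windows (GRCh38.p14, 250 bases before to 50 bases after each start) were on hand for 30 of the 37 genes. The core was found in at least 1 window of 9 of them (30.0%), against 1217 of 27305 genes (4.46%). A gene can have several windows, 47 in all for these 30 and 35116 for the 27305, and more windows give more room for a match. A match of these letters is a description of the sequence and does not show a bound site. Stretches of 60 bases around 6 of these cores are printed because 5 of their genes rose in both genotypes and the other, FGF21, was hardly detected. Capitals mark the core or its reverse complement, and each stretch is read on the strand of its gene.
ATF3, chr1:212565190-212565249, plus strand: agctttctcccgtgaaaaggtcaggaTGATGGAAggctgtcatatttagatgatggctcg
CHAC1, chr15:40953236-40953295, plus strand: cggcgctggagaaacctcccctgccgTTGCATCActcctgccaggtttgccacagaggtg
ASNS, chr7:97872443-97872502, minus strand: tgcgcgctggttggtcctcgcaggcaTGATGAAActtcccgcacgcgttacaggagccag
CEBPG, chr19:33374045-33374104, plus strand: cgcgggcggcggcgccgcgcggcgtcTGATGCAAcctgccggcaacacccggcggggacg
JDP2, chr14:75427980-75428039, plus strand: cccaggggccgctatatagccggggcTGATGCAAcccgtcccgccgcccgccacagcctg
FGF21, chr19:48755444-48755503, plus strand: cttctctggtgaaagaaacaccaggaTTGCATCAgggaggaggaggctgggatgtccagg

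The cores of ASNS, CEBPG and JDP2 ended 61, 35 and 9 bases before the RefSeq start of their window. Those of ATF3, CHAC1 and FGF21 ended 184, 202 and 47 bases before it. The other 3 genes with a core were the transporters SLC3A2, SLC7A1 and SLC1A4. In SLC3A2 and SLC7A1 it lay after the start. In SLC1A4 it began 7 bases before the start and ended at it. ATF3, ASNS, CEBPG, JDP2, SLC3A2 and SLC1A4 also had windows at other RefSeq starts, without the core. Most other members that rose in both genotypes had windows without these letters. They were DDIT3, TRIB3, SESN2, PPP1R15A, CEBPB, DDIT4, PHGDH, MTHFD2, ALDH18A1, GDF15 and STC2. EIF4EBP1 and SHMT2, which also rose in both, had no window.

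Before the results, several features of the libraries need stating. KMT2D itself stood at 266 to 279 CPM (counts scaled to the TMM-adjusted library total over the 14 libraries) in KMT2D-WT cells with glucose, and at 182 to 373 CPM in KMT2D-KO cells with glucose. Without glucose it was at 230.5 to 239 CPM in KMT2D-WT cells and at 19.9, 190.2, 152 and 145 CPM in the 4 KMT2D-KO libraries. The RNA level therefore did not separate the genotypes with glucose, and small Cas9 edits need not lower it. TXNIP, which is switched off when glucose is withdrawn, checked the glucose labels. It lay between 44.9 and 136 CPM in all 7 libraries with glucose and between 3.20 and 9.72 CPM in all 7 without. ARRDC4, the other check gene, was at 0.860 and 1.05 CPM in KO1 with glucose, within its 0.125 to 3.58 CPM without. Of these 2 genes 2 fell in KMT2D-WT and 1 in KMT2D-KO deprivation, beside 7.58% and 16.0% of all genes. With glucose 2 of 2 were lower in KMT2D-KO than in KMT2D-WT cells, beside 11.7% of all genes. Total counts ranged from 15669154 to 62968057. The labels do not name a library kind. The counting commands in the headers of the counts set the paired-end option for the 4 libraries of experiment 2 with glucose and not for the other 10. The share of even values among counts of 1 to 10 was 67.4 to 70.6% in the 4 and 37.4 to 42.7% in the 10. Each mate was therefore taken to add to the count in the 4. Glucose and library kind thus cannot be told apart in experiment 2, whereas experiment 1 was counted as single reads throughout. The 2 KMT2D-WT libraries of experiment 2 without glucose differed by a mean chi-square of 1.71 per gene, and those labelled KO1 and KO2 by 1.78, against 25.9 to 83 for the other 4 pairs of one group and experiment. Over 20 genes that separate the lines with glucose, the library labelled KO1 without glucose in experiment 2 lay 3.94 log2 units from KO1 and 0.399 from KO2, against its label. Results are therefore also given for experiment 1 alone and with each of these close pairs summed to 1 library. If that library is of KO2, the KMT2D-KO libraries without glucose hold more of KO2 than those with glucose. Only the fit of experiment 1 has a term for line, so in the other fits line and glucose would be partly mixed. Summing the pair does not restore the balance. Squamous markers were present except KRT6A, at no more than 1.13 CPM, but several were not level: ITGB4 lay at 724 to 1517 CPM, KRT5 at 1.5 to 225 CPM and KRT17 at 24.0 to 1303 CPM. Of the 10 squamous markers, 3 rose in KMT2D-KO deprivation (median log2 fold change 1.03 over 9 tested), beside 14% of all genes. In KMT2D-WT deprivation 1 rose and 1 fell, beside 7.15% and 7.58%. A larger response in KMT2D-KO cells was called in 3, beside 4.73%. Without glucose 5 were higher in KMT2D-KO cells, beside 25.9%, and with glucose 2 were lower, beside 11.7%. Without experiment as a block these calls fell to 1 and 0 in KMT2D-KO and KMT2D-WT deprivation. They fell to 0 in the difference, 3 without glucose and 1 with glucose. PTPRC and PECAM1 were at or near 0. The leukocyte gene CD14 reached 1.10 CPM and was not called by edgeR in any comparison that tested it. Its log2 fold change in KMT2D-KO against KMT2D-WT cells was -1.10 with glucose, lower at an unadjusted p under 0.05, and -1.54 without. The endothelial gene CDH5 reached 4.11 CPM and was higher in KMT2D-KO cells without glucose (log2 2.24 ± 0.32, SE, edgeR adjusted p = 0.00143). Of the 7 fibroblast genes 3 were tested with glucose, and 3 were higher in KMT2D-KO cells (median log2 fold change 2.72), beside 13% of all genes. Without the block 1 was called. Without glucose 1 was tested and was higher, beside 25.9%. COL1A1, at 3.03 to 16.0 CPM, was higher in KMT2D-KO cells with (1.26 ± 0.17, SE) and without glucose (1.33 ± 0.14, SE). COL1A2 and COL3A1 reached 5.335 and 5.26 CPM in the KO1 library of experiment 2 with glucose and were near 0 without. The part of these markers in the results was not tested. In such bulk RNA a change in the share of cells cannot be told apart from a change in RNA per cell. The labels do not say whether libraries of one group and experiment came from separate cultures, so p-values measure the spread between libraries, which may be technical.

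Most of the ATF4 group was called higher without glucose in each genotype, and 12 of 35 members were in experiment 1 alone. Both fits by genotype include experiment 2, where glucose and library kind cannot be told apart. In KMT2D-WT cells 20 of the 34 members that passed the filter on low counts were higher without glucose and 0 were lower (edgeR's quasi-likelihood test, Benjamini-Hochberg adjusted p under 0.05), against 7.15% of all 17227 genes tested that were higher and 7.58% that were lower. At an unadjusted p under 0.05 1 member was lower, and DESeq2 also called 1. In KMT2D-KO cells 23 of 34 were higher and 1 was lower, against 14% and 16.0% of 16057 genes. The median log2 fold change of the members was 0.60 in KMT2D-WT cells and 0.84 in KMT2D-KO cells, where the median of all genes was 0.01 and 0.00. In 20 members of each genotype every library without glucose lay above every library with glucose, which held for 9.54% of all genes in KMT2D-WT cells and 9.24% in KMT2D-KO cells. The 20 calls in KMT2D-WT cells rest on the libraries of experiment 2: leaving out any 1 of those 4, or summing the close pair without glucose, left 0 members and at most 1 gene called by edgeR, while 22 to 26 members stayed higher at an unadjusted p under 0.05 and the members' median stayed at 0.59 to 0.62. In KMT2D-KO cells 17 to 28 members were called higher with any 1 library left out, the 28 without the KO1 library of experiment 1 without glucose, and 18 with the close pair summed. Of the members called there, ATF4, ATF5, ALDH18A1, JDP2, PSPH, SHMT2 and SLC38A2 lost the call with at least 1 library left out. In the text that follows, a member is called or not called by edgeR unless another tool is named. DESeq2 called 11 more members higher in KMT2D-WT cells, namely ATF4, PSPH, PYCR1, CTH, VLDLR and the transporters other than SLC1A4, and it called ATF5 lower there. In KMT2D-KO cells it added PSAT1, SLC6A9 and VEGFA.

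**Figure D1:**
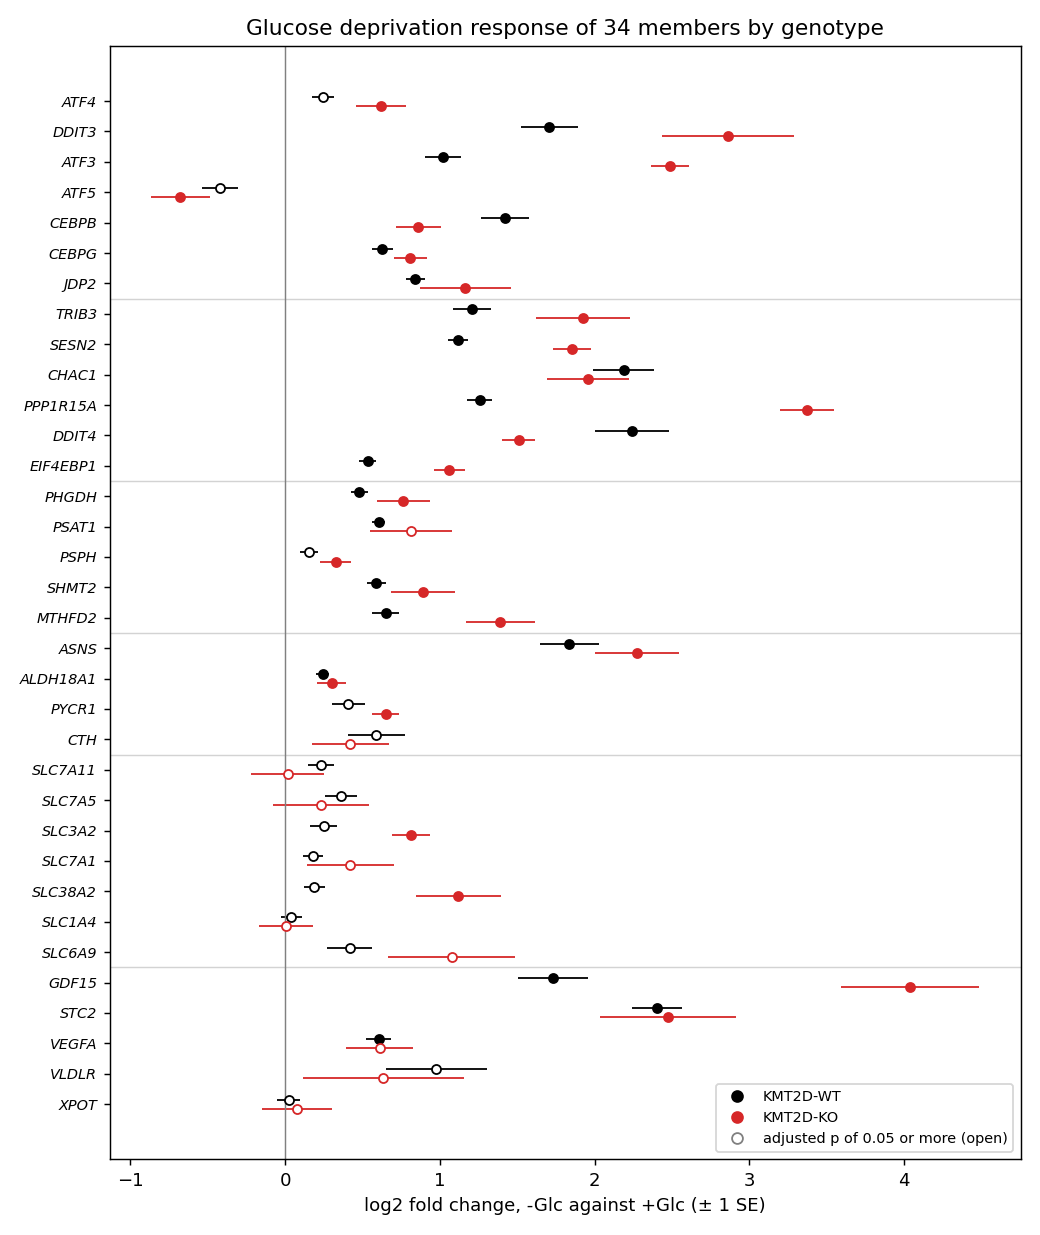
Log2 fold change without against with glucose (horizontal axis, ± 1 SE) of the 34 members tested, in KMT2D-WT cells (black, 3 against 3 libraries) and KMT2D-KO cells (red, 4 against 4 libraries), with open symbols for an adjusted p of 0.05 or more and grey lines between role groups. The 6 stress regulators are filled in both genotypes, ATF5 is the gene to the left of 0, and of the amino acid transporters SLC3A2 and SLC38A2 are filled, in KMT2D-KO cells.

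Experiment 1, in which each line had 1 library with and 1 without glucose, was tested with line as a block. Of 35 members tested 12 were higher without glucose and 0 were lower (edgeR; 1 lower at an unadjusted p under 0.05, 0 with DESeq2), against 0.479% and 0.622% of 16066 genes. These 12 were DDIT3, ATF3, CEBPB, TRIB3, SESN2, CHAC1, PPP1R15A, DDIT4, EIF4EBP1, ASNS, GDF15 and STC2. All of them were also called higher in both genotypes, in fits that include the same libraries of experiment 1, so the agreement is not independent. With 1 line left out between 10 and 18 members were called. Without the line block 0 were called, with 16 at an unadjusted p under 0.05. Over all libraries, 31 of the 34 members had a positive log2 ratio of mean CPM in each experiment of KMT2D-WT cells, and likewise 31 in KMT2D-KO cells. The exceptions were ATF5, negative throughout, SLC1A4 in both genotypes, XPOT in KMT2D-WT cells and SLC7A11 in KMT2D-KO cells, whose ratios differed in sign between the experiments.

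The values that follow are CPM, with experiment 1 given first, and for KMT2D-KO cells KO1 before KO2 within each experiment. ATF4 itself (chr22:39519672-39522683 in the GRCh38 annotation of Ensembl 102) was at 294, 209 and 206 CPM in KMT2D-WT cells with glucose and at 392, 228 and 230.2 CPM without. In KMT2D-KO cells it was at 292, 429, 269 and 367 CPM with glucose and 634, 673, 427 and 428 CPM without. Within each line and condition the library of experiment 1 was the highest, and the libraries with and without glucose overlapped in both genotypes. Its log2 fold change was 0.62 ± 0.16 (SE, adjusted p = 0.0244) in KMT2D-KO cells and 0.24 ± 0.07 (SE, adjusted p = 0.0737) in KMT2D-WT cells, where it did not pass the test, and the difference between these, 0.35 ± 0.19 (SE, adjusted p = 0.263), did not pass either. The call in KMT2D-KO cells was lost without the KO1 library of experiment 2 with glucose, without either library of experiment 2 without glucose, with the close pair summed and without the block. ATF4 has 4 annotated pseudogenes, so its count carries some uncertainty.

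DDIT3 (CHOP, chr12:57516588-57521737), a target of ATF4 that promotes cell death under lasting stress, was at 16.3, 4.78 and 5.88 CPM in KMT2D-WT cells with glucose and 37.8, 19.7 and 21.1 CPM without. The KMT2D-KO libraries gave 15.7, 22.4, 6.67 and 9.71 CPM with glucose and 43.5, 154, 84.8 and 86.7 CPM without. No library without glucose fell below one with glucose in its genotype, and the KO2 library of experiment 1 was the highest. DDIT3 rose 3.26-fold in KMT2D-WT cells (log2 1.71 ± 0.18, SE, adjusted p = 0.0168) and 7.26-fold in KMT2D-KO cells (log2 2.86 ± 0.43, SE, adjusted p = 0.00463). Other annotated genes overlap 39.6% of its exon bases, and reads there may not have been assigned to it, so its level is uncertain.

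ATF3 (chr1:212565334-212620777), a stress-induced factor that acts mainly as a repressor, was the 1 transcription factor of the group whose response edgeR called different between the genotypes, where DESeq2 called DDIT3 as well. Its libraries stood at 10.1, 6.94 and 6.81 CPM (KMT2D-WT) and 14.1, 12.3, 9.42 and 12.3 CPM (KMT2D-KO) with glucose. After deprivation they stood at 17.0, 15 and 15.3 CPM and 66.7, 76.3, 65.6 and 63.7 CPM. The 4 KMT2D-KO libraries without glucose lay within a narrow band far above all others. The rise was 2.03-fold in KMT2D-WT cells (log2 1.02 ± 0.12, SE, adjusted p = 0.0173) and 5.60-fold in KMT2D-KO cells (log2 2.48 ± 0.12, SE, adjusted p = 0.000131).

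CEBPB and CEBPG, leucine zipper partners of ATF4, rose in both genotypes. CEBPB went from 86.9, 41.3 and 33.8 CPM to 176, 123 and 106 CPM in KMT2D-WT cells and from 70.3, 80.9, 66.8 and 64.0 CPM to 105, 169, 120.1 and 125 CPM in KMT2D-KO cells, with no overlap in either. CEBPB had the larger estimate in KMT2D-WT cells (1.42 ± 0.16, SE, adjusted p = 0.0168, against 0.86 ± 0.14 (SE, adjusted p = 0.00631) in KMT2D-KO cells), but the difference did not pass the test (-0.48 ± 0.29, SE, adjusted p = 0.316). CEBPG rose by 0.63 ± 0.07 and 0.81 ± 0.11 (log2, SE). JDP2, which represses AP-1 sites and can dimerize with stress factors, was at 39.5, 23.8 and 23.5 CPM before and 65.1, 45.1 and 42.4 CPM after deprivation in KMT2D-WT cells. In KMT2D-KO cells it went from 25.8, 40.5, 21.9 and 27.7 CPM to 36.4, 92.9, 65.7 and 66.1 CPM, where the KO1 library of experiment 1 stayed within the range with glucose.

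ATF5, a relative of ATF4 that is also controlled at translation, was the only member that edgeR called lower in a deprivation comparison. Its log2 fold change was -0.68 ± 0.19 (SE, adjusted p = 0.0323) in KMT2D-KO cells and -0.42 ± 0.12 (SE, adjusted p = 0.0616), not called, in KMT2D-WT cells, and 22.1% of its exon bases overlap other genes. NUPR1, a stress-induced chromatin protein, had at most 1.07 CPM and did not pass the filter in either deprivation comparison by genotype. It was higher in KMT2D-KO than in KMT2D-WT cells without glucose (log2 2.95 ± 0.46, SE, adjusted p = 0.00208), on at most 19 counts a library, and with any 1 of the 4 KMT2D-KO libraries left out it did not pass the filter and was not tested. Per kilobase of exon, ATF4 had the highest mean level in KMT2D-WT cells with glucose, 81.2 CPM. The means there were 29.4 for CEBPB, 9.29 for CEBPG, 7.72 for ATF5, 6.87 for DDIT3, 4.62 for JDP2 and 1.97 for ATF3. In KMT2D-KO cells without glucose ATF4 was again highest at 186 CPM per kilobase. CEBPB stood at 70.7 and DDIT3 at 70.5, which did not differ beyond their spread between libraries. CEBPG was at 20.8, ATF3 at 16.9, JDP2 at 10.4 and ATF5 at 5.34. The order below ATF4 is uncertain. All exon bases were divided by, of which 39.6% in DDIT3, 22.1% in ATF5 and 12.6% in CEBPB overlap other genes. The means also pool experiments that differ, as DDIT3 at 16.3, 4.78 and 5.88 CPM in KMT2D-WT cells with glucose shows.

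**Figure D2:**
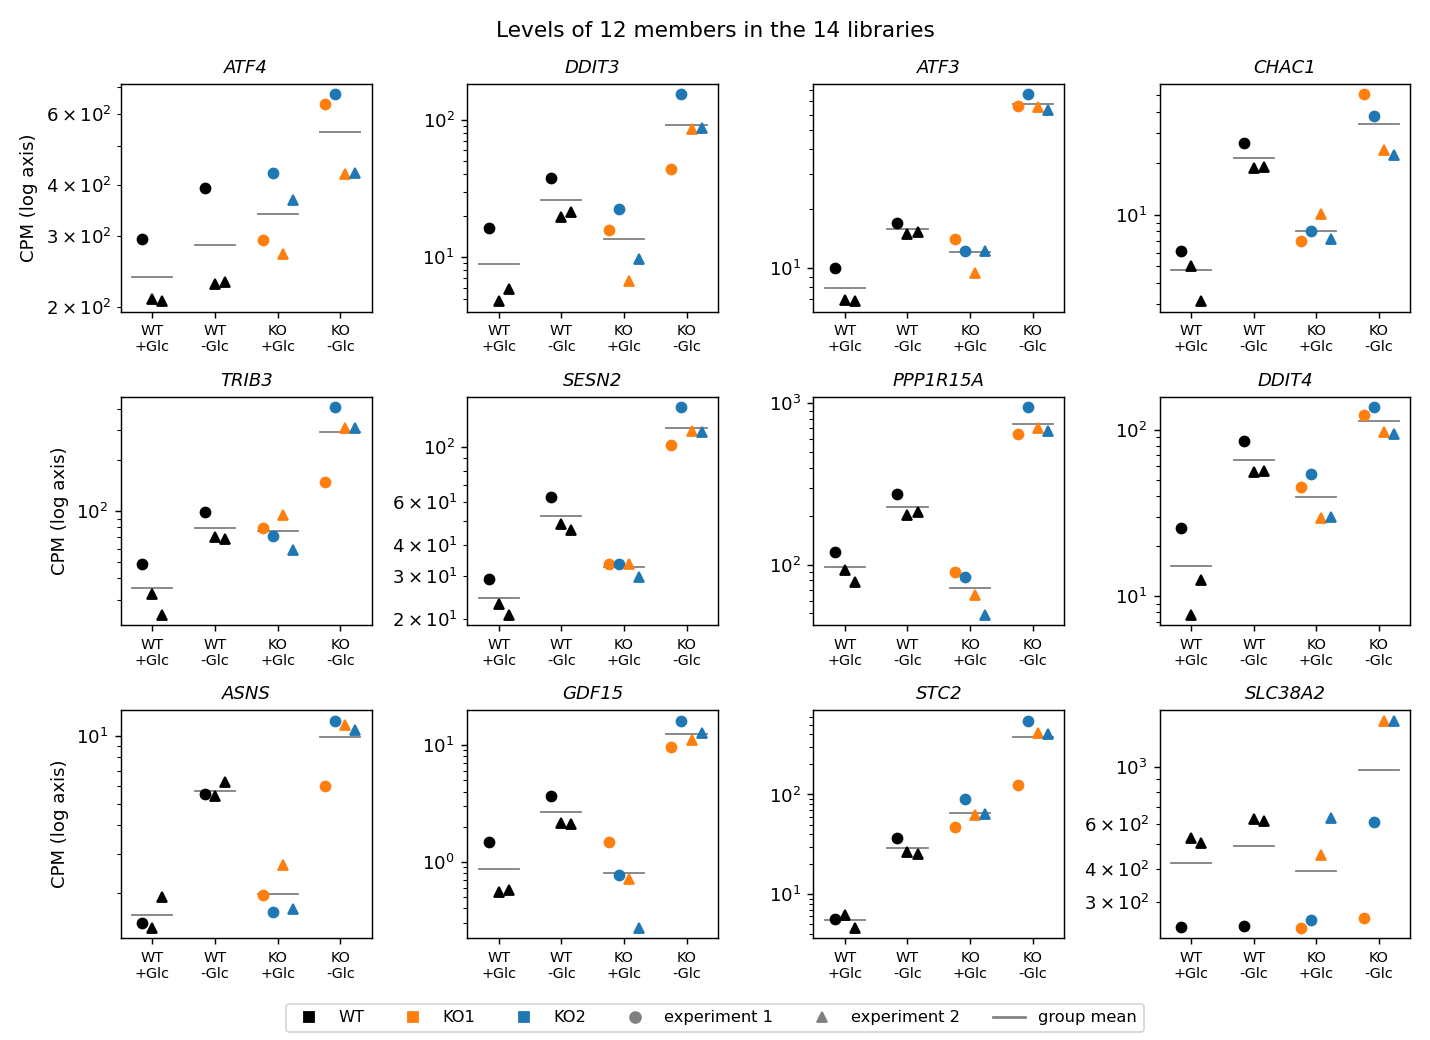
CPM (log axes) of 12 members in each of the 14 libraries, by genotype and glucose, with colours for the line, circles for experiment 1, triangles for experiment 2 and grey lines for the mean of the group. ATF3 and PPP1R15A in KMT2D-KO cells without glucose stand apart from every other group, and STC2 is already higher in KMT2D-KO cells with glucose.

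Of the stress regulators, which feed back on translation and growth, 6 of 6 rose in KMT2D-WT cells, 6 of 6 in KMT2D-KO cells and 6 of 6 in experiment 1, beside 7.15%, 14% and 0.479% of all genes. Without the block 0 were called in KMT2D-WT cells (5 at an unadjusted p under 0.05) and 6 in KMT2D-KO cells. Their median log2 fold changes were 1.23, 1.89 and 1.53. PPP1R15A (GADD34), which brings a phosphatase to eIF2 and so reverses the stress signal, stood at 121, 92.6 and 77.9 CPM in KMT2D-WT cells with glucose and 275, 202 and 212 CPM without. In KMT2D-KO cells it was at 90, 84.3, 64.6 and 49.1 CPM with glucose and 650.3, 946, 701 and 674 CPM without. With glucose the KMT2D-KO libraries reached lower than the KMT2D-WT libraries and overlapped them, and without glucose all 4 were above all 3. PPP1R15A rose 2.39-fold in KMT2D-WT cells (log2 1.26 ± 0.08, SE, adjusted p = 0.0113) and 10.3-fold in KMT2D-KO cells (log2 3.37 ± 0.18, SE, adjusted p = 0.000131).

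TRIB3, a pseudokinase that restrains ATF4 and AKT, went from 48.3, 32.5 and 24.5 CPM to 98.3, 70.4 and 68.8 CPM in KMT2D-WT cells and from 79.0, 71.0, 94.5 and 59.1 CPM to 149, 409, 310.5 and 307 CPM in KMT2D-KO cells. The KO1 library of experiment 1 gave the lowest KMT2D-KO level without glucose, and the groups did not overlap in either genotype. TRIB3 rose by 1.21 ± 0.12 (SE, adjusted p = 0.0168) and 1.93 ± 0.30 (SE, adjusted p = 0.00537) on the log2 scale. SESN2, a leucine sensor that holds back mTORC1, went from 29.0, 23.0 and 20.9 CPM to 62.6, 48.7 and 45.9 CPM and from 33.5, 33.6, 33.5 and 29.6 CPM to 102, 145, 116 and 115 CPM. The KMT2D-KO libraries with glucose were nearly level with each other, and the rises were 1.12 ± 0.06 (SE, adjusted p = 0.00983) and 1.85 ± 0.12 (SE, adjusted p = 0.000273).

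CHAC1, an enzyme that degrades glutathione, was at 6.12, 5.02 and 3.12 CPM before and 26.4, 18.9 and 18.9 CPM after deprivation in KMT2D-WT cells. In KMT2D-KO cells it went from 7.07, 8.04, 10.1 and 7.19 CPM to 50.8, 37.9, 23.9 and 22.3 CPM, and its libraries of experiment 1 were higher than those of experiment 2 without glucose. Its fold changes of 4.55 and 3.88 (log2 2.19 ± 0.20 and 1.96 ± 0.27, SE, adjusted p = 0.0168 and adjusted p = 0.00332) differed by -0.32 ± 0.30 (SE, adjusted p = 0.529), which did not pass the test. DDIT4 (REDD1), another brake on mTORC1, went from 25.5, 7.74 and 12.4 CPM to 84.8, 55.8 and 56.4 CPM in KMT2D-WT cells and from 45.3, 53.7, 29.3 and 30.0 CPM to 122, 136, 97.0 and 93.5 CPM in KMT2D-KO cells. DDIT4 thus started higher in KMT2D-KO cells, and it rose by 2.24 ± 0.24 (SE, adjusted p = 0.0168) and 1.51 ± 0.11 (SE, adjusted p = 0.000398). In DDIT4 41.2% of its exon bases overlap an antisense gene, which had 0 counts. EIF4EBP1 (4E-BP1), which blocks cap-dependent translation, rose by 0.53 ± 0.06 (SE, adjusted p = 0.0168) and 1.06 ± 0.10 (SE, adjusted p = 0.001).

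Of the serine, glycine and one-carbon enzymes, 4 of 5 rose in each genotype and 0 of 5 were called in experiment 1 (edgeR; 4 at an unadjusted p under 0.05, 4 with DESeq2), where their log2 fold changes were between 0.31 and 0.85. Of all genes 7.15% and 14% rose in the genotypes and 0.479% in experiment 1, and without the block 0 and 2 of these 5 were called. MTHFD2, the mitochondrial folate dehydrogenase, went from 125, 106 and 101 CPM to 163, 175 and 177 CPM in KMT2D-WT cells and from 133, 182, 132 and 177 CPM to 252, 454, 481 and 495 CPM in KMT2D-KO cells. Each genotype was higher without glucose in every library, with the KO1 library of experiment 1 the lowest of its 4. MTHFD2 rose by 0.65 ± 0.09 (SE, adjusted p = 0.0212) and 1.39 ± 0.22 (SE, adjusted p = 0.00547), and the difference of 0.85 ± 0.26 (SE, adjusted p = 0.0515) did not pass the test. PHGDH, the first step of serine synthesis, rose by 0.48 ± 0.05 and 0.76 ± 0.17 (log2, SE), and SHMT2, which splits serine to glycine in mitochondria, by 0.59 ± 0.06 and 0.89 ± 0.21. PSAT1, the second step, was called in KMT2D-WT cells (0.60 ± 0.04) and not in KMT2D-KO cells (0.81 ± 0.26), where the KO1 library of experiment 1 rose less than the others. PSPH, the last step, had 0.33 ± 0.10 in KMT2D-KO cells, called by both tools, and 0.15 ± 0.06 in KMT2D-WT cells, called by DESeq2 and not by edgeR. MTHFD2 has 7 annotated pseudogenes and shares 14.1% of its exon bases with other genes, and PSAT1 has 4 pseudogenes, so their counts carry some uncertainty.

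ASNS, asparagine synthetase and the classic amino acid response gene (chr7:97851677-97872542), carries the core printed for its promoter. It was at 1.48, 1.41 and 1.93 CPM with glucose and 5.49, 5.39 and 6.20 CPM without in KMT2D-WT cells. The KMT2D-KO libraries were at 1.97, 1.65, 2.66 and 1.70 CPM and 5.96, 11.7, 11.1 and 10.6 CPM. The libraries with and without glucose did not overlap, and the fold changes were 3.57 (log2 1.84 ± 0.19, SE, adjusted p = 0.0168) and 4.84 (log2 2.27 ± 0.27, SE, adjusted p = 0.00206). Its level is uncertain, because 49.3% of its exon bases overlap another annotated gene and 4 pseudogenes exist. Of the proline enzymes, ALDH18A1 rose by 0.24 ± 0.04 in KMT2D-WT cells and 0.30 ± 0.09 in KMT2D-KO cells, and PYCR1 by 0.65 ± 0.09 in KMT2D-KO cells, with 0.41 ± 0.10 not called in KMT2D-WT cells. Other annotated genes overlap 29.7% of the exon bases of PYCR1, so its level is uncertain too. CTH, the last enzyme of transsulfuration, had 0.59 ± 0.18 and 0.42 ± 0.25, neither of which edgeR called, though DESeq2 called the first. CBS, the enzyme before it, was listed at 0 in all 14 libraries, where 3 counts would equal 0.0444 to 0.188 CPM. The near-identical annotated copy CBSL had at most 5 counts, so reads shared by the pair may not have been assigned, and no statement on CBS is made.

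Of the amino acid transporters 0 of 7 were called in KMT2D-WT cells by edgeR, where 7.15% of all genes were higher. In KMT2D-KO cells 2 of 7 rose (28.6%, beside 14% of all genes). In experiment 1 0 of 7 were called, where 0.479% of all genes were higher. The log2 fold changes of the 7 in KMT2D-WT cells lay between 0.04 and 0.42. Without adjustment for the number of genes, 6 of the 7 in KMT2D-WT cells and 2 in experiment 1 were higher at a p under 0.05, and DESeq2 called 6 and 0 higher, so that the count in KMT2D-WT cells depends on the tool. SLC38A2 (SNAT2), which imports neutral amino acids and is induced by amino acid shortage, was at 240, 528 and 507 CPM with glucose and 242, 626 and 616 CPM without in KMT2D-WT cells. In KMT2D-KO cells it was at 238, 256, 456 and 632 CPM and 259, 609, 1501 and 1509 CPM. Within each line and condition the library of experiment 1 was the lower, and in experiment 1 KO2 went from 256 to 609 CPM while KO1 went from 238 to 259 CPM. The log2 fold change of 1.12 ± 0.28 (SE, adjusted p = 0.021) in KMT2D-KO cells was called, that of 0.19 ± 0.07 (SE, adjusted p = 0.106) in KMT2D-WT cells was not. The first was lost with the close pair summed, without the block and without any 1 of the 4 KMT2D-KO libraries of experiment 2 or the KO2 library of experiment 1 without glucose.

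SLC3A2, the heavy chain shared by SLC7A5 and SLC7A11, rose by 0.81 ± 0.12 (SE, adjusted p = 0.00464) in KMT2D-KO cells and had 0.25 ± 0.09 (SE, adjusted p = 0.104) in KMT2D-WT cells. Its call in KMT2D-KO cells was lost without the block. Neither of its light chains was called in either genotype by edgeR, and DESeq2 called both in KMT2D-WT cells. SLC7A11, the cystine importer, had 0.23 ± 0.08 in KMT2D-WT cells and 0.02 ± 0.24 in KMT2D-KO cells, and SLC7A5, the leucine importer, had 0.36 ± 0.10 and 0.23 ± 0.31. SLC7A1, which carries arginine, had 0.18 ± 0.06 and 0.42 ± 0.28. SLC6A9, the glycine transporter, had 0.42 ± 0.15 and 1.08 ± 0.41, and SLC1A4, which exchanges alanine, serine and cysteine, had 0.04 ± 0.07 and 0.00 ± 0.18. In experiment 1 the log2 ratios of KO1 were -0.58 for SLC7A1, -0.95 for SLC7A11 and -0.47 for SLC7A5. KO2 gave 0.74, 0.36 and 0.39 (1 library per condition and line). For SLC6A9 and SLC1A4 both lines were positive, at 0.34 and 0.12 in KO1 and 1.24 and 0.45 in KO2. The cause of the wide errors in KMT2D-KO cells was not tested.

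Among the secreted proteins, GDF15 (chr19:18374731-18389176), a circulating stress hormone of the TGF-beta family, had the largest log2 fold change of all members in KMT2D-KO cells. It was at 1.48, 0.548 and 0.574 CPM with glucose and 3.67, 2.16 and 2.12 CPM without in KMT2D-WT cells. The KMT2D-KO libraries were at 1.48, 0.774, 0.714 and 0.272 CPM and 9.59, 16.2, 11.1 and 12.7 CPM. With glucose no library exceeded 1.48 CPM, and all KMT2D-KO libraries without glucose were above all others. GDF15 rose 3.32-fold (log2 1.73 ± 0.23, SE, adjusted p = 0.0207) and 16.4-fold (log2 4.04 ± 0.45, SE, adjusted p = 0.00164).

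STC2, a secreted glycoprotein induced by ER stress, was at 5.70, 6.16 and 4.61 CPM with glucose and 36.6, 26.4 and 25.1 CPM without in KMT2D-WT cells, and at 47.5, 90.8, 61.7 and 63.3 CPM and 125, 550.4, 413 and 407 CPM in KMT2D-KO cells. The lowest KMT2D-KO library with glucose was above every KMT2D-WT library, with or without it. The rises were nonetheless alike in estimate, 2.40 ± 0.16 (SE, adjusted p = 0.0128) and 2.48 ± 0.44 (SE, adjusted p = 0.00743), and their difference of 0.11 ± 0.55 has an interval of -0.99 to 1.21 (± 2 SE). VEGFA, the angiogenic growth factor, was called in KMT2D-WT cells (0.60 ± 0.08) and not in KMT2D-KO cells (0.61 ± 0.21). VLDLR, a lipoprotein receptor, had 0.98 ± 0.33 and 0.63 ± 0.52, and XPOT, the tRNA exporter, 0.02 ± 0.07 and 0.07 ± 0.23, none of which edgeR called, though DESeq2 called VLDLR in KMT2D-WT cells. FGF21, another stress hormone, had 7 counts in all 14 libraries together.

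**Figure D3:**
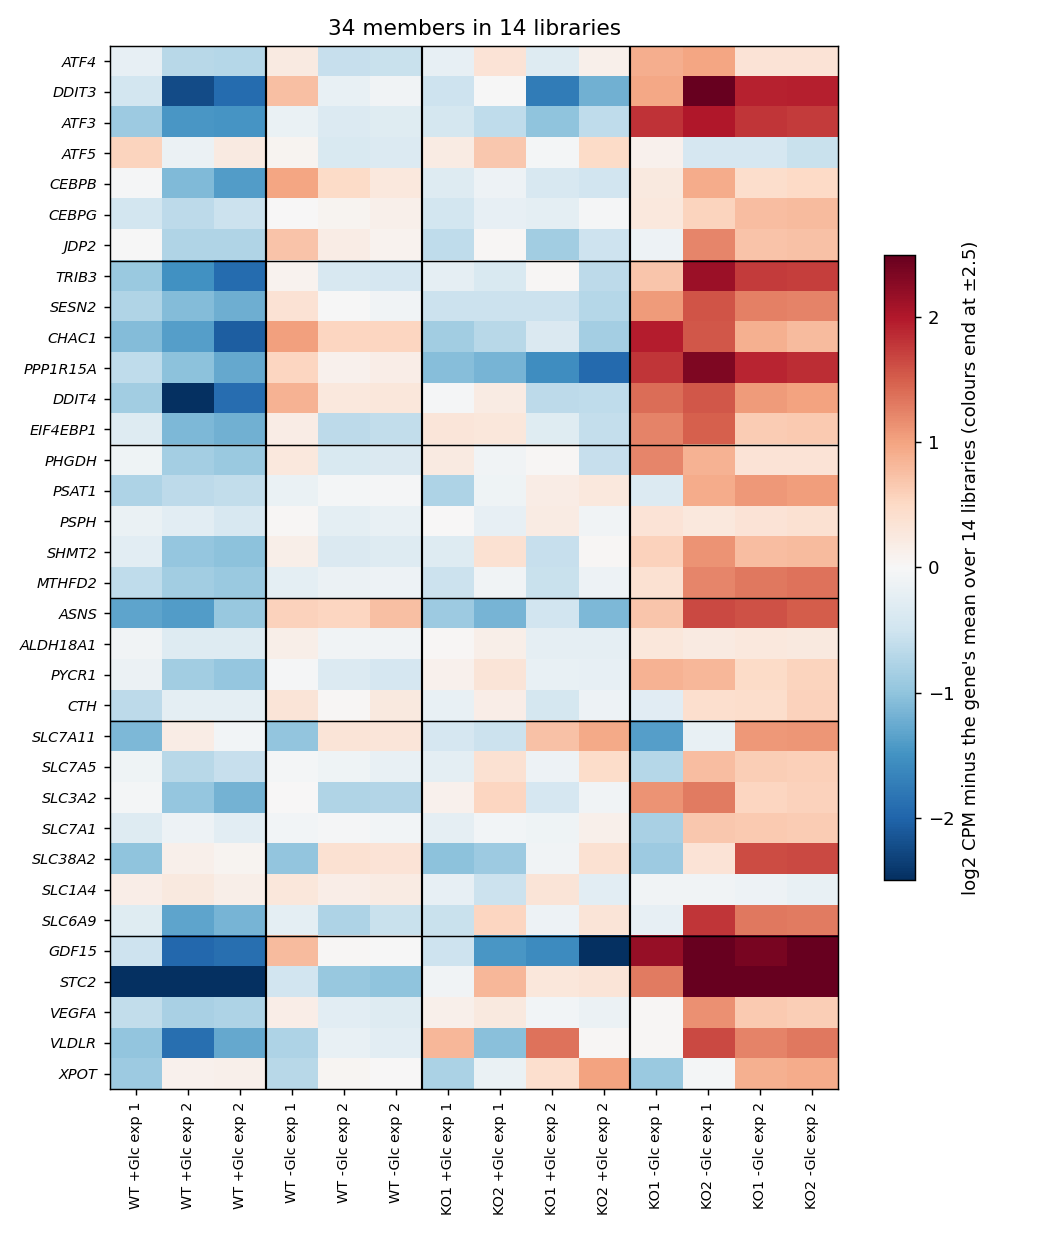
Log2 CPM of the 34 members with a mean of at least 1 CPM, each minus its mean over the 14 libraries, with libraries in columns by group (black vertical lines) and members in rows by role. The KMT2D-KO libraries without glucose are the reddest block, the KO1 library of experiment 1 is paler there in PSAT1, STC2 and 5 of the 7 transporters (SLC3A2 and SLC1A4 are the exceptions), and its SLC7A1 level of 256 CPM compares with 694 to 709 in the other 3.

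The lines of experiment 1, where no library was counted as paired-end, were also read singly (1 library per condition, no test). The log2 ratio of ATF3 was 0.75 in KMT2D-WT cells, 2.24 in KO1 and 2.63 in KO2. For PPP1R15A it was 1.19, 2.85 and 3.49, and for GDF15 1.31, 2.70 and 4.39. In these 3 genes both knockout lines exceeded the KMT2D-WT line. TRIB3 gave 1.02, 0.92 and 2.53, and STC2 2.69, 1.39 and 2.60, so that KO1 was below KMT2D-WT in both. ATF4 gave 0.42, 1.12 and 0.65.

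**Figure D4:**
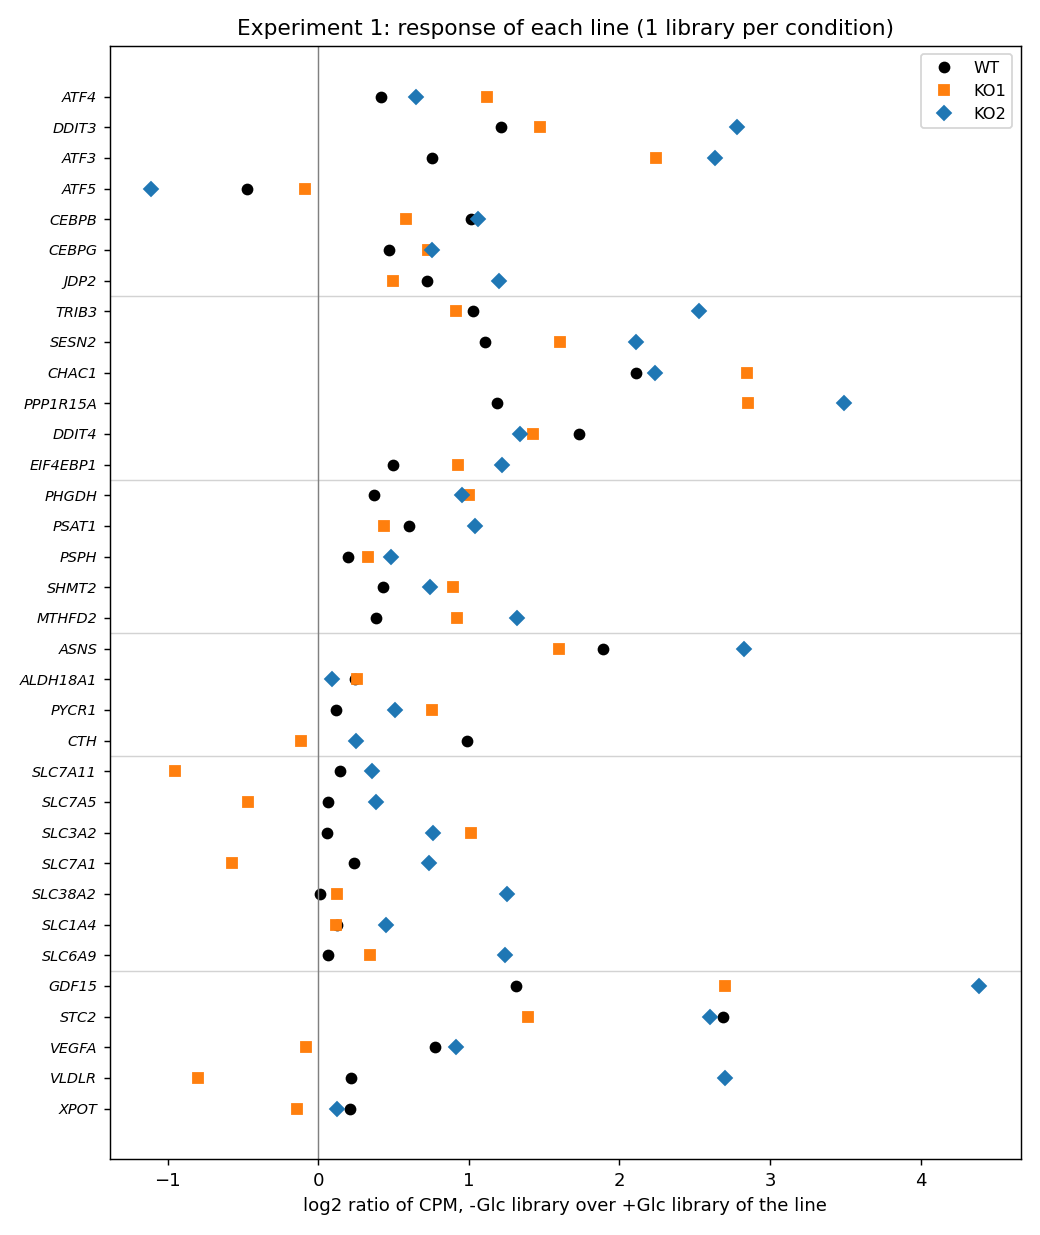
Log2 ratio of CPM without over with glucose in experiment 1 for KMT2D-WT (black circles), KO1 (orange squares) and KO2 (blue diamonds), 1 library per condition, so that the points carry no error. For ATF3, PPP1R15A and GDF15 both knockout lines lie to the right of KMT2D-WT, and for SLC7A1, SLC7A11 and SLC7A5 the line KO1 lies to the left of 0.

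Whether the response differed between genotypes was tested in 1 fit of all 14 libraries. Of 35 members 7 had a larger rise in KMT2D-KO cells and 0 a smaller one (edgeR; 1 smaller at an unadjusted p under 0.05, 0 with DESeq2), against 4.73% and 6.54% of 18678 genes. GDF15 had the largest difference, 2.47 ± 0.45 on the log2 scale (SE; edgeR adjusted p = 0.00625). PPP1R15A followed with 2.19 ± 0.19 (SE, adjusted p = 6.90e-05), and ATF3 with 1.53 ± 0.16 (SE, adjusted p = 0.000277). SLC38A2 (1.04 ± 0.31, SE, adjusted p = 0.048), SESN2 (0.77 ± 0.18, SE, adjusted p = 0.0177), SLC3A2 (0.61 ± 0.18, SE, adjusted p = 0.0494) and EIF4EBP1 (0.56 ± 0.13, SE, adjusted p = 0.0177) made up the rest. DESeq2 called 9, with DDIT3 and MTHFD2 added. With the close pairs of experiment 2 summed, ATF3 and PPP1R15A alone were called, and these 2 were called under every alternative run. GDF15 was lost in the summed fit and in the fit without experiment. None of the alternatives for the difference has a term for line. With any 1 of the KMT2D-WT library of experiment 1 with glucose, the 3 KMT2D-WT libraries without glucose or the KMT2D-KO libraries of experiment 2 without glucose left out, 3 or 4 members were called, and without the KO1 library of experiment 1 without glucose, 12 were.

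DDIT3, with 1.33 ± 0.47 (SE, adjusted p = 0.0859), and TRIB3, with 0.78 ± 0.42 (SE, adjusted p = 0.253), had larger estimates in KMT2D-KO cells that did not pass the test. DDIT4 (-0.62 ± 0.22, SE, adjusted p = 0.0897) and CEBPB had smaller ones that did not pass it either. For ASNS the difference was 0.46 ± 0.34, with an interval of -0.22 to 1.15 (± 2 SE), and for CHAC1 -0.32 ± 0.30, with an interval of -0.91 to 0.27.

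**Figure D5:**
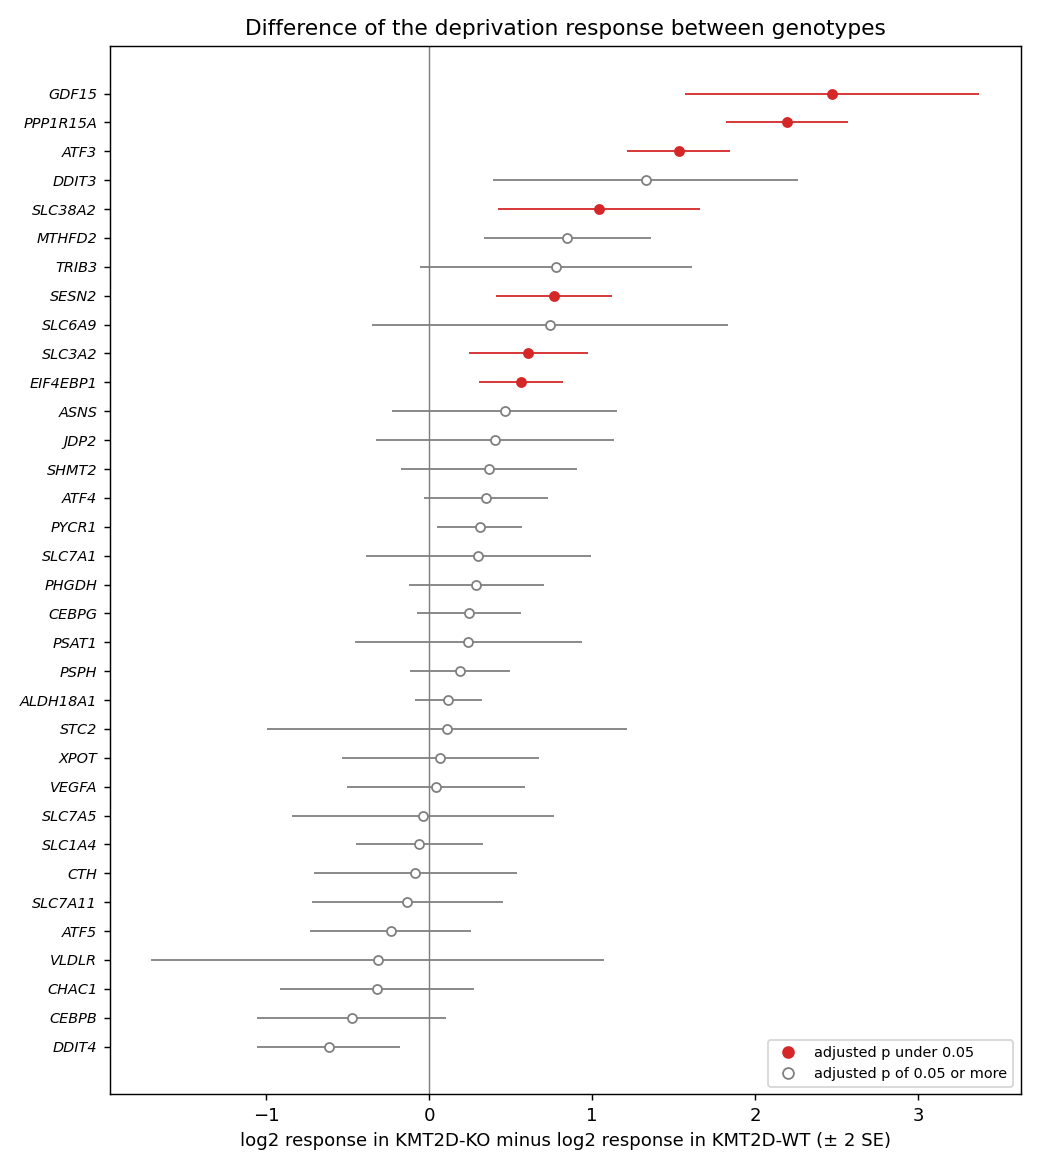
Log2 response in KMT2D-KO cells minus that in KMT2D-WT cells (± 2 SE) for 34 members in order of size, from 1 fit of 14 libraries, with filled red symbols for an adjusted p under 0.05. GDF15, PPP1R15A and ATF3 lie farthest to the right at 2.47, 2.19 and 1.53, and 7 members are filled.

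The genotypes also differed within each glucose condition, in comparisons that share their libraries with those above. With glucose 17 of 34 members were higher and 1 was lower in KMT2D-KO cells, against 13% and 11.7% of 20423 genes, and the members' median log2 fold change was 0.49. Without glucose 26 of 35 were higher and 1 was lower, against 25.9% and 24.9% of 16782 genes, with a median of 0.81. STC2 had the largest difference in both conditions, at 3.57 ± 0.24 (SE, adjusted p = 4.75e-05) with and 3.64 ± 0.50 (SE, adjusted p = 0.00118) without glucose. DDIT4 was 2.5-fold higher with glucose and 1.60-fold without, and TRIB3 2.17-fold and 3.63-fold. The member called lower was PPP1R15A with glucose (-0.53 ± 0.12, SE, adjusted p = 0.0117), which was higher without it (1.63 ± 0.12, SE, adjusted p = 0.000103), and SLC1A4 without glucose (-0.38 ± 0.07, SE, adjusted p = 0.00454). ATF4 was higher in KMT2D-KO cells in both conditions, by 0.49 ± 0.16 (SE, adjusted p = 0.0476) and 0.81 ± 0.05 (SE, adjusted p = 8.58e-05). The first of these calls was lost without the block and in 5 of 7 fits with 1 library left out (any 1 of the 3 KMT2D-WT libraries, or either KO2 library), and its libraries overlapped between the genotypes, while the second was kept under every alternative run. The lower call of PPP1R15A with glucose was lost when the block was dropped or when 1 KMT2D-WT library, that of experiment 1 or 1 of experiment 2, was left out. Without either KMT2D-WT library of experiment 2 the count with glucose fell to 7 higher, and without that of experiment 1 to 10. Summing the close pairs left 14 higher without glucose.

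Other genes of the pathway were taken from lists written with earlier results of these data known. Of the 20 cytosolic aminoacyl-tRNA synthetases, which charge tRNAs and include many ATF4 targets, 14 rose and 0 fell in each genotype (edgeR), with median log2 fold changes of 0.33 and 0.45, where 7.15% and 14% of all genes rose. Without the block 0 were called higher in KMT2D-WT cells (6 at an unadjusted p under 0.05) and 7 in KMT2D-KO cells. In both genotypes 0 were lower at an unadjusted p under 0.05 and 0 with DESeq2. In experiment 1 alone 0 of 20 were called in either direction by edgeR, beside 0.479% of all genes higher and 0.622% lower. At an unadjusted p under 0.05 edgeR had 9 higher and 0 lower, and DESeq2 called 5 higher and 0 lower. CARS1 rose by 0.68 ± 0.11 (SE, adjusted p = 0.0268) and 1.15 ± 0.14 (SE, adjusted p = 0.00249), GARS1 by 0.55 ± 0.06 and 0.83 ± 0.17, and YARS1 by 0.55 ± 0.06 and 0.81 ± 0.11. The cell's eIF2 kinases, eIF2 and eIF2B subunits and their regulators are 17 genes upstream of ATF4. In KMT2D-WT cells 2 rose and 1 fell (11.8% higher and 5.88% lower, beside 7.15% and 7.58% of all genes). In KMT2D-KO cells 4 rose and 0 fell (23.5% higher, beside 14% of all genes higher and 16.0% lower). DESeq2 called 6 higher in each genotype, and without the block edgeR called 0 in each. In experiment 1 alone edgeR and DESeq2 each called 0 of the 17, beside 0.479% of all genes higher by edgeR. At an unadjusted p under 0.05 edgeR had 1 higher there. EIF2B2, a subunit of the exchange factor that reloads eIF2, rose by 0.63 ± 0.12 (SE, adjusted p = 0.00828) in KMT2D-KO cells, and PPP1R15B, the constitutive partner of the eIF2 phosphatase, by 0.45 ± 0.08 (SE, adjusted p = 0.00787).

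The XBP1 and ATF6 arms of the unfolded protein response, which run beside ATF4 when the endoplasmic reticulum is stressed, held 7 of 18 genes that rose and 2 that fell in KMT2D-WT cells, and 8 that rose and 1 that fell in KMT2D-KO cells. Higher calls thus made up 38.9% and 44.4% of the list, beside 7.15% and 14% of all genes. Lower calls made up 11.1% and 5.56% of it, beside 7.58% and 16.0% of all genes. Without the block 0 and 4 genes were called higher. HERPUD1, which takes part in ER-associated degradation, rose by 0.82 ± 0.08 (SE, adjusted p = 0.0168) and 2.03 ± 0.27 (SE, adjusted p = 0.00308). XBP1 rose by 0.75 ± 0.06 (SE, adjusted p = 0.0148) and 1.85 ± 0.18 (SE, adjusted p = 0.00101), and the chaperone HSPA5 (BiP) by 0.52 ± 0.05 (SE, adjusted p = 0.0168) and 1.39 ± 0.22 (SE, adjusted p = 0.00516). In experiment 1 edgeR called 2 genes of this list, HERPUD1 and XBP1 (11.1%, beside 0.479% of all genes), and DESeq2 called 4. Their responses were also larger in KMT2D-KO cells in the test of the difference, by 1.29 ± 0.34 (SE, adjusted p = 0.0294) and 1.18 ± 0.21 (SE, adjusted p = 0.00527), as were those of 6 of the 18 in all (33.3%, beside 4.73% of all genes). Without experiment as a block edgeR called 0 of the 18, with 4 larger at an unadjusted p under 0.05, and DESeq2 with the block called 8.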

How the data were processed

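RNA-seq of SCC23 cells was analysed in 14 libraries, grouped by the genotype, glucose and experiment in their labels. The authors aligned reads with HISAT2 and, per the file headers, counted primary alignments on genes with featureCounts 2.0.3 (Ensembl 102, GRCh 38, no strand). The deposited values are raw counts. Other assays of the study were not analysed here. The test was the quasi-likelihood test of edgeR 4.0.16 (R 4.3.3) after TMM scaling. Genes had to pass filterByExpr at a minimum count of 10, and p was adjusted by Benjamini-Hochberg over all of them, with calls at an adjusted p under 0.05. Experiment, as the labels give it, was the block, or line in experiment 1. The study's methods name DESeq2 without a covariate. DESeq2 1.42.0 was run as an alternative with the block kept, so it does not repeat the study's fit. Other alternatives used RLE scaling, dropped the block or the filter, fitted all libraries together or left out 1 library, and summing the close pairs was added after seeing the data. All 37 members may be named. Values per library went to ATF4, DDIT3, ATF3 and the 14 called members with the largest absolute log2 fold change, and up to 4 called genes came from each other list. The members and lists were chosen with earlier results of these data known. The fits were checked on simulated counts. Of genes simulated with a log2 change of 1, 47% were called in KMT2D-WT deprivation, 41% in KMT2D-KO deprivation and 37% in the difference. A member that was not called may therefore still have changed.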

Additional observations from a re-analysis of the deposited data

Results flagged for a closer look

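Within the KMT2D-KO groups of 4 libraries, 6 of 68 sets of member levels held a library whose gap to its neighbour took up most of the range of its group. Chance flags about 1 in 20 groups of 4 exchangeable samples, which these are not, since each group holds 2 lines and 2 experiments and 2 of the libraries without glucose are nearly alike. In the KO1 library of experiment 1 without glucose PSAT1 was at 60.4 CPM against 147 to 163 in the other 3 libraries, MTHFD2 at 252 against 454 to 495, SLC7A1 at 256 against 694 to 709, and ATF5 at 20.5 against 13 to 14.2. PPP1R15A reached 946 CPM in the KO2 library of experiment 1 without glucose against 650.3 to 701. SESN2 was at 29.6 CPM in the KO2 library of experiment 2 with glucose, against 33.5 to 33.6 in the other 3.

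In 7 members the response to deprivation differed between the genotypes in the test of the difference itself, and each was larger in KMT2D-KO cells. The log2 differences were 2.47 for GDF15, 2.19 for PPP1R15A, 1.53 for ATF3, 1.04 for SLC38A2, 0.77 for SESN2, 0.61 for SLC3A2 and 0.56 for EIF4EBP1. ATF3 and PPP1R15A were called under every alternative run, and the other 5 were lost under at least 1. No alternative for the difference had a term for line.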

How the results depend on the processing

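With the block (experiment, or line in experiment 1) dropped, members called higher fell from 20 to 0 in KMT2D-WT deprivation (18 at an unadjusted p under 0.05), from 23 to 16 in KMT2D-KO deprivation (PHGDH, PYCR1 and SLC3A2 among those lost), from 12 to 0 in experiment 1, from 7 to 2 in the difference of response, from 17 to 2 with glucose and from 26 to 17 without, and the lower call fell from 1 to 0 in KMT2D-KO deprivation and in both genotype comparisons. Without a filter on low counts 20 were higher in experiment 1 and 11 in the difference, with 1 lower in KMT2D-WT deprivation and 1 in the difference. DESeq2 called 31 higher and 1 lower in KMT2D-WT deprivation and 19 higher in experiment 1. All 14 libraries in 1 fit gave 11 higher in KMT2D-WT deprivation. Summing the close pairs, an alternative chosen after seeing the data, gave 0 higher in KMT2D-WT deprivation, 2 in the difference and 14 higher without glucose, and 0 lower in KMT2D-KO deprivation and without glucose. With 1 library left out, KMT2D-WT deprivation ranged from 0 to 28 higher and 0 to 1 lower, KMT2D-KO deprivation from 0 to 1 lower, the difference from 3 to 12 higher, the genotypes with glucose from 7 to 20 higher and 0 to 2 lower, and without glucose from 1 to 2 lower. The cause of these changes was not tested. Of the members called in each comparison, 0 changed direction under any alternative. Members near 0 that were not called did. With 1 library left out, SLC1A4 ranged from -0.0065 to 0.0841 in KMT2D-WT and from -0.0979 to 0.18 in KMT2D-KO deprivation, XPOT from -0.0725 to 0.0664 and from -0.0862 to 0.25, and in KMT2D-KO cells SLC7A11 from -0.18 to 0.26 and SLC7A5 from -0.0587 to 0.49. Without the block XPOT was at -0.0116 in KMT2D-WT and SLC1A4 at -0.0093 in KMT2D-KO deprivation, and with the pair summed SLC7A11 was at -0.0044. Without a filter the median log2 fold change of all genes in KMT2D-KO deprivation was -0.16. At this depth FGF21 and CBS passed the filter in none of the 6 comparisons as reported. NUPR1 passed it in experiment 1 and in the difference, where it was not called, and in the genotypes without glucose, where it was. It was called in KMT2D-KO deprivation without a filter and without the KO1 library of experiment 1 with glucose.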
